A study of Mus musculus with 18 samples.

Results

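The genes described here are grouped as granzyme, perforin and cytotoxic granule genes. They encode the granzymes Gzma, Gzmb, Gzmc, Gzmk and Gzmm, the pore-forming protein perforin (Prf1) and the granule membrane protein Nkg7. The others encode the cysteine protease cathepsin W (Ctsw) and serglycin (Srgn). All are called granule genes below. The genes were taken by name, 9 of 21631 protein-coding genes on chromosomes 1 to 19 and X. Their measure was the percent of the annotated gene body lying under peaks of H3K79me2. H3K79me2, dimethylation of lysine 79 of histone H3, was mapped in CD4+ T cells of the mouse by ChIP-seq, in 3 groups of 3 libraries. Naive cells were sorted as CD44- CD62L+ cells straight from WT mice. Th1 cells came from enriched CD4+ T cells grown for 4 days with IL-12, IL-2 and anti-IL-4 over anti-CD3 and anti-CD28 bound to the plate, and were sorted by an IFNg-YFP reporter. Th2 cells were cultured the same way with IL-4, IL-2 and anti-IFNg and sorted by the 4C13R reporter (IL-4 AmCyan, IL-13 dsRed). All samples are labelled WT in genotype, although the Th1 and Th2 cells were sorted by reporter alleles that the naive cells are not said to carry. Culture, reporter strain and cell type therefore cannot be told apart between naive and polarised cells. Th1 and Th2 cells also differed in reporter and in culture cytokines, so these cannot be told apart from cell type between them either. Whether each library came from its own animal is not given in the sources used here, so p-values measure only how much libraries vary, and that variation may be technical.

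DOT1L writes H3K79me2 on the bodies of transcribed genes, most heavily from the start site downstream. Cytotoxic lymphocytes store granzymes and perforin in secretory lysosomes, packed on the proteoglycan serglycin. On release, perforin lets granzymes into the target cell, where these serine proteases cut proteins and set off cell death. CD8 T cells and NK cells are the main users of this machinery. CD4 T cells of the Th1 type are known to make some of it.

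The 9 peak lists held 38026 to 51854 peaks. The naive lists covered 275.6 to 284.9 Mb, the Th1 lists 217.0 to 240.1 Mb and the Th2 lists 232.2 to 249.9 Mb, so the naive lists had the widest coverage. Read depth is unknown. All 6 T lineage markers checked (Cd3e, Cd3g, Cd4, Thy1, Lat, Cd5) were covered over at least 50% in every list. Cd8a and Cd8b1, which mark CD8 T cells, were fully covered in every naive list. Their summed coverage was 7.55 to 11.9% in Th1 and 24.8 to 39.2% in Th2 lists, and Cd8a was at 0% in all 3 Th1 lists. Of 7 NK cell genes, 6 were at 0% in naive, 2 in Th1 and 5 in Th2 lists; summed coverage was 100% in naive (all from Tyrobp), 199.5 to 241.9% in Th1 and 81.1 to 101.5% in Th2 lists. Klrc1 and Klre1 were at 85.1% ± 8.36 and 88.5% ± 8.39 (SD, n = 3) in Th1 lists, and Ncr1 and Klra8 were at 0% in all 9. Tyrobp went the other way, from 100% in naive to 44.97% ± 9.34 in Th1 and 92.98% ± 12.2 in Th2 lists. Klrb1c and Fcer1g averaged 0.82% and 1.56% in Th1 lists and were at 0% in naive and Th2 lists. Of 5 B cell genes 4 were at 0% in all 9 lists, the exception being Cd79a at 100%. Of 5 mast cell and basophil genes 3 were at 0% in each group, Fcer1a and Ms4a2 among them in all 9 lists. Their summed coverage was 23.4 to 25.9% in naive, 5.92 to 7.65% in Th1 and 1.31 to 13.5% in Th2 lists, mainly from Hdc (16.0% ± 1.07, 6.401% ± 1.16 and 5.41% ± 5.98) and, in naive lists, Cpa3 (8.37% ± 0.994). Myeloid genes were at 0% in all lists except Itgax (10.97% in naive and 0.464% in Th1 lists on average). The part of CD8 or NK cell chromatin in the values below was not tested. Fewer cells with the mark and less of the mark per cell cannot be told apart in such bulk libraries.

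Start-site sequences are shown for 5 of the 6 genes called in any comparison, leaving out Gzma with its weak peaks. Each runs from 250 bases before to 50 after it. They come from RefSeq (GRCm38.p6, the assembly of mm10), in which 8 of the 9 genes had an entry; Ctsw had none. Capitals mark matches, on either strand, to the cores of motifs of 4 factor families. The core searched for T-box factors was TCACAC. For RUNX factors the search used TGTGGT. For GATA factors the search used AGATAA. For STAT factors the search used TTCNNNGAA.
Gzmb (chr14:56262285-56262584, minus strand): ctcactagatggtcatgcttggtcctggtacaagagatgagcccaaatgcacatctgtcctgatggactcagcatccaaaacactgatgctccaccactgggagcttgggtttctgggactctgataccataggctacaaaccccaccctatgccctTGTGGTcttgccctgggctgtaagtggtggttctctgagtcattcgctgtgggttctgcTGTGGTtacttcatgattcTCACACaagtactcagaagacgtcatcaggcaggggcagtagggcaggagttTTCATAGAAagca
Prf1 (chr10:61297586-61297885, plus strand): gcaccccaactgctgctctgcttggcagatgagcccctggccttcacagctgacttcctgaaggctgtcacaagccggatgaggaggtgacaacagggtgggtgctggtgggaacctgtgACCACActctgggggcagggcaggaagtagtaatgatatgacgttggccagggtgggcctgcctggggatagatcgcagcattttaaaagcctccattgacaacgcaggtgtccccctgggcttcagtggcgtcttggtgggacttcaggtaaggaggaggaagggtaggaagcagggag
Nkg7 (chr7:43436888-43437187, plus strand): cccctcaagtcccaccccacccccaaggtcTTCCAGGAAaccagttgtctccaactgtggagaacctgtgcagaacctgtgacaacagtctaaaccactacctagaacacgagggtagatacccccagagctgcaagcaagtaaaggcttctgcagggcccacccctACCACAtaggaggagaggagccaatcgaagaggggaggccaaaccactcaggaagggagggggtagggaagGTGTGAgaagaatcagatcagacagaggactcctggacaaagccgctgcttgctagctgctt
Gzmm (chr10:79688770-79689069, plus strand, the first of its start sites): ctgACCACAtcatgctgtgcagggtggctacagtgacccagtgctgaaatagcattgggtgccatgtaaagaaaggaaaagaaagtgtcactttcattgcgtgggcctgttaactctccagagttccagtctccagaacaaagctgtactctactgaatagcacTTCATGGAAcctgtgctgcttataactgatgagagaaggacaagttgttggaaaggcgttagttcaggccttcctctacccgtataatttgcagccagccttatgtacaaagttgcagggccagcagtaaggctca
Srgn (chr10:62507708-62508007, minus strand, the downstream of its start sites): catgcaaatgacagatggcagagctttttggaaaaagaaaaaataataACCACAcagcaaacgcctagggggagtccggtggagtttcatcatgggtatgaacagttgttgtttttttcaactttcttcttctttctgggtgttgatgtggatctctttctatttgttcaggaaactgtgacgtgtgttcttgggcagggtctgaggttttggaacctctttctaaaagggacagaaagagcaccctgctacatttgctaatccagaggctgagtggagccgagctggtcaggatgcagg
The Gzmb window held the T-box core 15 bases before the start site, RUNX cores 93 and 34 bases before it and a STAT core 37 bases after it. The Nkg7 window held a T-box core 12 bases and a RUNX core 83 bases before the start. A RUNX core lay in 7 of the 10 windows listed for these genes, including those of Gzma and Gzmc, against 16.8% of all 32851 windows in the table. T-box cores lay in 4 of 10 (14.5% of all), STAT cores in 3 (8.30%) and a GATA core in 1 (11.2%). No match overlapped another. A match is a run of letters, and no binding was measured.

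**Figure D1:**
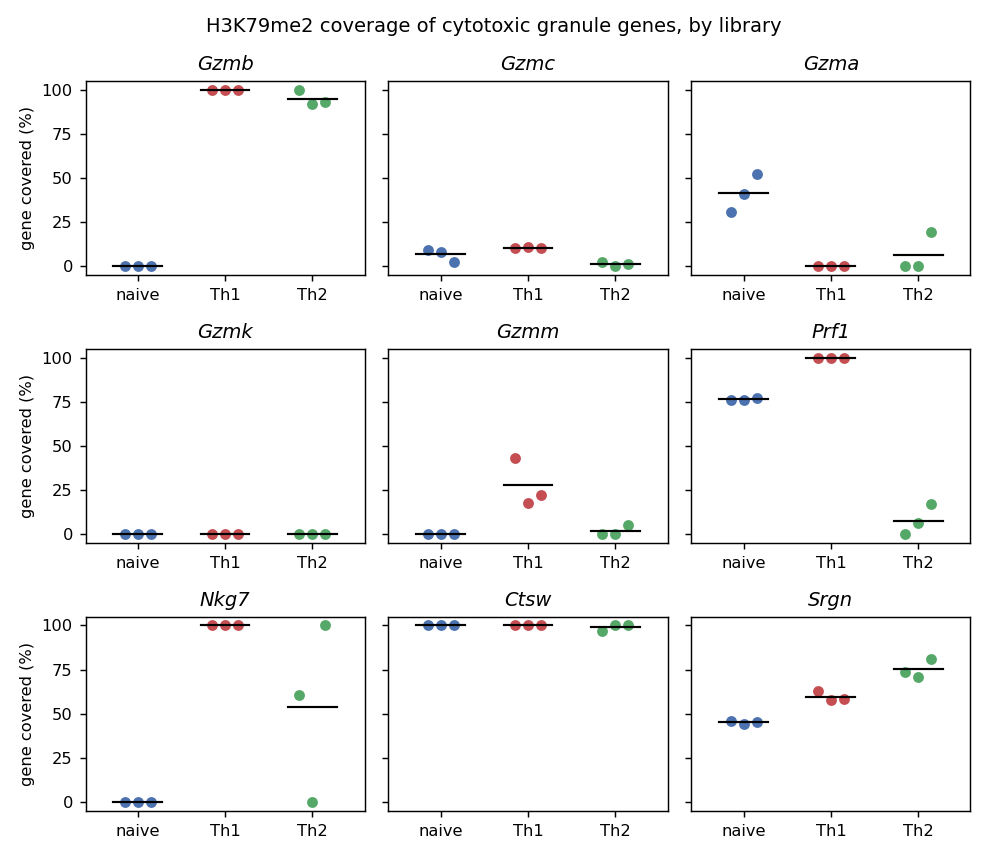
Percent of each gene body covered by H3K79me2 peaks (y axis) in the 3 libraries of each cell type (points), with the group mean as a short line. Gzmb is at 0% in all naive lists and at 92.0% or more in all Th1 and Th2 lists, whereas Prf1 is at 75.9% or more in naive and Th1 lists and at 16.9% or less in Th2 lists.

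Gzmb encodes granzyme B, the granzyme that cuts caspases and other proteins after aspartate. The gene spans 3.50 kb on the minus strand (chr14:56258836-56262334). It was at 0% in all 3 naive lists, at 100% in all 3 Th1 lists and at 100%, 92.0% and 93.2% in the Th2 lists. Every polarised list lay far above every naive list. Differences were 100 points (SE 2.10) for Th1 and 95.1 points (SE 2.10) for Th2 against naive cells (adjusted p = 3.2e-08 and 4.4e-08, limma over 11600 genes). The SD was 0 in naive and Th1 lists and 4.32 in Th2 lists, and the fit uses the same spread for all groups. These p-values therefore do not rest on variation seen among naive or Th1 lists. The difference of Th2 from Th1 lists, -4.93 points (95% interval -9.84 to -0.02, adjusted p = 0.18), was not called. The start-site window printed above was fully covered in all 6 polarised lists and bare in all naive lists.

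Gene coverage hid a difference in the extent of the Gzmb domain. In each Th1 list 1 unbroken peak ran over the gene, with widths of 49.4, 48.3 and 47.7 kb. It began 6.70, 5.59 and 4.97 kb downstream of the start site and ended 42.72, 42.69 and 42.69 kb upstream of it. In the Th2 lists the peak over Gzmb was 6.05, 5.33 and 5.85 kb wide and reached 1.99, 2.11 and 2.59 kb upstream. The authors' fold enrichment of the Gzmb peak was 5.97 to 7.61 in Th1 lists, within the top 3.26 to 4.58% of each list, and 3.37 to 3.79 in Th2 lists, within the top 11.3 to 15.5%. Such folds belong to a peak in its own list and are the authors' values here and below.

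Sequence upstream of Gzmb was marked in all cell types. The 50 kb upstream of the start site, in which the annotation lists the pseudogene Gm48200 and no other gene, was covered over 36.0%, 35.2% and 38.0% in naive lists. Coverage there was 87.4%, 86.0% and 85.4% in Th1 lists and 57.8%, 49.7% and 64.7% in Th2 lists, without overlap between the groups. The naive lists held 6, 7 and 6 separate peaks in this stretch, with folds of 1.88 to 3.04. The nearest lay 15.1, 15.1 and 14.9 kb from the start site and the farthest edges lay at 41.6, 41.2 and 41.4 kb. Farthest edges were at 41.1, 41.2 and 41.4 kb in Th2 lists, close to the far end of the Th1 peak. These extents were not tested.

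**Figure D2:**
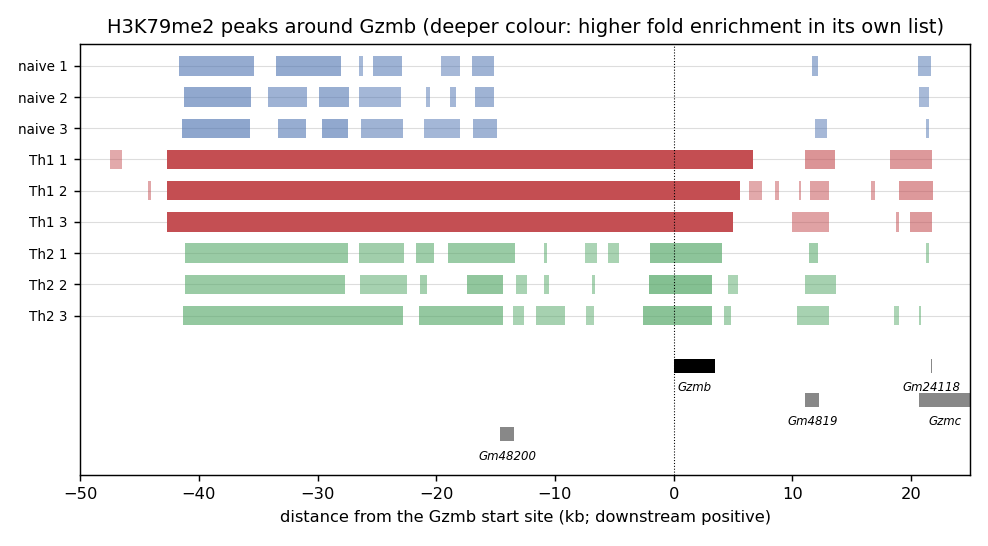
Peaks around Gzmb in each of the 9 lists, by distance from the Gzmb start site in kb (downstream positive), with genes and pseudogenes below. One peak of 47.7 to 49.4 kb joins gene and upstream sequence in the Th1 lists, the Th2 lists hold a peak of 5.33 to 6.05 kb over the gene and separate peaks upstream, and the naive lists hold peaks upstream but none over the gene.

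Gzmc, the nearest protein-coding neighbour of Gzmb on the side downstream of it, lies 17.2 kb away and encodes a granzyme that activated killer cells make. It was at 9.51%, 8.37% and 2.70% in naive, 10.6%, 11.1% and 10.3% in Th1 and 2.69%, 0% and 1.64% in Th2 lists. Its peaks sat at the gene end that faces Gzmb, at least 5.86 kb upstream of the start site listed for it, and the 3 kb downstream of that start were at 0% in all 9 lists. No difference reached the 25 points required for a call (3.81, -5.42 and -9.23 points for Th1 against naive, Th2 against naive and Th2 against Th1; adjusted p = 0.087, 0.025 and 0.0097). The snoRNA gene Gm24118, inside Gzmc, lay under the Th1 peaks over 100%, 100% and 77.0% of its length and was bare in 2 naive and all Th2 lists. The mark of the 2 genes cannot be told apart there. Farther along the cluster Gzmf was at 23.8% ± 7.98 in Th1 lists and at 0% in all naive and Th2 lists. Its 23.8 points stayed below the minimum difference (adjusted p = 0.00056 against naive). The other 10 proteases checked in this locus (Gzmd, Gzme, Gzmg, Gzmn, Ctsg, Cma1, Mcpt1, Mcpt2, Mcpt4 and Mcpt8) were at 0% in all 9 lists.

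Gzma and Gzmk encode trypsin-like granzymes and lie 70.6 kb apart on chromosome 13. Gzma (chr13:113093824-113100981) was at 30.7%, 41.0% and 52.3% in naive lists, at 0% in all 3 Th1 lists and at 0%, 0% and 19.7% in the Th2 lists. All naive lists exceeded all polarised lists. Gzma was called lower in Th1 (-41.4 points, SE 6.66, adjusted p = 0.001) and in Th2 cells (-34.8 points, SE 6.66, adjusted p = 0.0026), and the 6.56 points between Th2 and Th1 cells were not called (95% interval -9.01 to 22.1, adjusted p = 0.62). The naive Gzma peaks were weak, with folds of 2.18 to 2.23 and −log10 q values of 2.37 to 2.51. When peaks with a −log10 q below 5 were dropped, or with lists cut to one covered length, Gzma was the same in all 9 lists and could not be tested. With 2 kb added on both sides, the Th2 call ended (-21.8 points). Gzma lies inside Cdc20b, which was at 3.44% ± 0.896 in naive lists. That coverage was the Gzma peaks themselves, and the rest of Cdc20b was bare in naive lists. The peaks lie in both genes, so by position they cannot be assigned to Gzma alone. Gzmk had no peak in any list; it was at 0% throughout and entered no test.

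Gzmm encodes granzyme M, known from NK cells and innate-like T cells. The gene (chr10:79689020-79695261) was at 0% in all naive lists, at 43.1%, 17.8% and 22.3% in Th1 lists and at 0%, 0% and 5.40% in Th2 lists. All Th1 lists exceeded all others. Gzmm was called higher in Th1 than in naive cells (27.7 points, SE 5.89, adjusted p = 0.0044) and lower in Th2 than in Th1 cells (-25.9 points, SE 5.89, adjusted p = 0.024). Th2 and naive cells were 1.80 points apart (95% interval -11.96 to 15.6, adjusted p = 0.82). The first Th1 library decided these calls: without it the differences were 20.05 and -18.3 points, below the minimum. Without the first or the second Th2 library the Th2 against Th1 call ended as well (adjusted p = 0.07 and 0.073), and without peaks under a −log10 q of 5 both calls ended (24.7 and -24.7 points). The Th2 against Th1 call also ended with the gene widened by 2 kb (-22.99 points) and with no filter on genes (adjusted p = 0.069).

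Most of the mark on Gzmm lay in the end of a peak that also covered its neighbour. Cdc34, a ubiquitin-conjugating enzyme gene whose body ends 0.621 kb before Gzmm, was at 93.7% ± 3.05 in naive, 99.5% ± 0.874 in Th1 and 96.6% ± 4.36 in Th2 lists. In Th1 lists 1 peak of 10.6, 9.45 and 7.85 kb ran over Cdc34, across the 0.621 kb gap and into Gzmm, ending 2.40, 1.11 and 1.12 kb downstream of the Gzmm start. The gap was fully covered in all 3 Th1 lists, bare in the naive and the first 2 Th2 lists, and at 41.1% in the third Th2 list. Of the Gzmm start-site window printed above, all 300 bases were covered in each Th1 list and none in any naive or Th2 list. The first and the third Th1 list also held a peak of 0.288 and 0.276 kb farther inside Gzmm, and the third Th2 list 1 of 0.337 kb. The second start site listed for Gzmm was bare in all 9 lists over the 3 kb downstream of it. Coverage from Cdc34 and from Gzmm cannot be told apart here.

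Prf1 encodes perforin, the protein that opens pores in the target membrane. The gene (chr10:61297751-61304684) was at 75.9%, 76.3% and 77.3% in naive lists, at 100%, 99.8% and 100% in Th1 lists and at 0%, 6.13% and 16.9% in Th2 lists. The Th2 lists were low and lay far from the rest, and all Th1 lists were above all naive lists. Prf1 was called lower in Th2 than in naive cells (-68.8 points, SE 3.81, adjusted p = 4.2e-06) and than in Th1 cells (-92.3 points, SE 3.81, adjusted p = 6.1e-06). The 23.4 points by which Th1 exceeded naive cells (SE 3.81, adjusted p = 0.0011) were below the minimum difference and were not called, and Th1 coverage was at its ceiling. They passed at 31.7 points when libraries were centred to one mean. Centring shifts all genes of a library by the same amount, and 31.7 points is more than coverage can rise above the naive values. In the naive lists Prf1 carried 2 peaks, 1 from 0.50 to 0.97 kb before the start site to 2.57 to 2.65 kb after it and 1 from 4.13 to 4.29 kb to 6.81 to 6.93 kb after it. A single peak of 8.35, 6.95 and 8.27 kb spanned the gene in the Th1 lists. The first Th2 list had no peak on Prf1, the second had 2 of 0.205 and 0.22 kb, and the third had 1 of 1.18 kb, with folds of 1.82 to 2.02. Neighbours did not share the mark: Pald1, Tbata and Nodal were at 0% in all lists, and Adamts14 was at 11.7% ± 1.39 in naive, 1.18% ± 0.808 in Th1 and 0% in Th2 lists.

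Nkg7 encodes a granule membrane protein needed for full granule release by killer cells. The gene is 1.11 kb long (chr7:43437138-43438246), so a shift of a peak edge by a fraction of a kb moves its coverage widely. It was at 0% in all naive lists, at 100% in all Th1 lists and at 60.9%, 0% and 100% in the Th2 lists. The Th2 lists thus spanned the whole scale. Nkg7 was called higher in Th1 than in naive cells (100 points, SE 21.4, adjusted p = 0.0045). The SD was 0 in naive and Th1 lists and 50.4 in Th2 lists, and the fit uses 1 spread for all groups. Th2 was 53.6 points above naive (95% interval 3.59 to 103.7, adjusted p = 0.063) and its difference from Th1 cells was -46.4 points (95% interval -96.4 to 3.65, adjusted p = 0.22), neither of which was called. Without the second Th2 library the gain over naive passed at 80.4 points, and without the third the deficit to Th1 passed at -69.6 points. With the gene widened by 2 kb on both sides, both were called (47.6 points, adjusted p = 0.002, and -47.4 points, adjusted p = 0.0094), and with centred libraries the gain over naive was (61.3 points, adjusted p = 0.023). Most of the widened stretch lies outside Nkg7. It reaches into Lim2, which ends 1.14 kb before Nkg7 and was covered in Th1 lists alone.

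Like Gzmm, Nkg7 shared its domain with neighbours. In naive lists a peak on Cldnd2 and Etfb, the latter encoding a subunit of the mitochondrial electron transfer flavoprotein, began 5.72, 5.94 and 5.70 kb downstream of the Nkg7 start, and the 2.49 kb between Nkg7 and Cldnd2 were bare. In Th1 lists 1 peak of 17.5, 16.4 and 19.2 kb covered Nkg7, Cldnd2 and part of Etfb, with folds of 6.48 to 8.66, in the top 1.77 to 3.22% of each list. In the Th2 lists the edge of a peak of 3.95 to 4.02-fold fell near the Nkg7 start: 0.43 kb inside the gene in the first list and 0.16 kb before it in the third. In the second Th2 list the nearest peak began 1.14 kb downstream of the start, past the end of Nkg7. Over the 3 kb downstream of the start site, which reach past the end of Nkg7, coverage was 85.5%, 45.2% and 100% in Th2 and 0% in naive lists, and Th2 was called higher by 76.9 points (adjusted p = 0.0028). That window was chosen after the data were seen. Cldnd2 rose from 35.5% ± 3.95 in naive to 100% in all Th1 and Th2 lists, and Lim2, on the other side, was at 48.9% ± 14.6 in Th1 lists and at 0% in naive and Th2 lists.

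**Figure D3:**
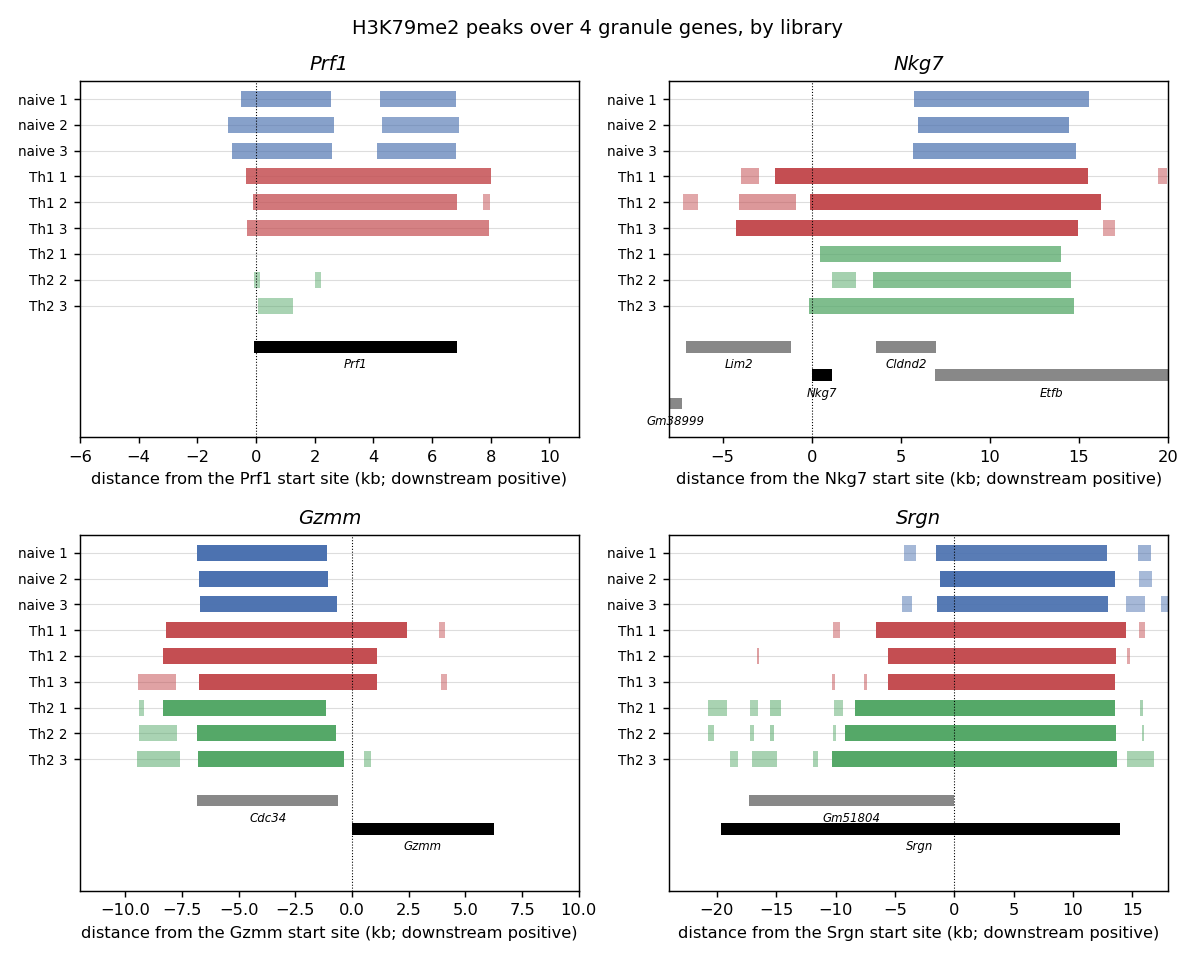
Peaks over Prf1, Nkg7, Gzmm and Srgn in each list, by distance from the start site in kb (downstream positive), with genes below; a deeper colour is a higher fold in its own list. The Gzmm and Nkg7 start sites lie under peaks shared with Cdc34 and with Cldnd2 and Etfb in Th1 lists, and the Srgn peak reaches farther upstream from naive to Th1 to Th2 lists.

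Ctsw encodes cathepsin W, a cysteine protease of T and NK cells. The gene (chr19:5465043-5468628) was at 100% in all naive and Th1 lists and at 97.1%, 100% and 100% in Th2 lists. It was the sole gene of the 9 covered over at least 90% in every list, and no difference was called (0, -0.97 and -0.97 points). The peak of the first Th2 list was weaker, with a −log10 q of 4.40. Without peaks under a −log10 q of 5, Th2 differed by -33.3 points from naive and from Th1 cells, which was not called. With 2 kb added on both sides the Th2 differences were -19.6 and -20.8 points, below the minimum. It overlaps Fibp by 10 bases, and Fibp was at 100% in naive, 98.3% ± 1.42 in Th1 and 92.0% ± 12.2 in Th2 lists, so a domain shared with Fibp cannot be assigned. The peak over Ctsw was 19.8, 19.98 and 20.5 kb wide in naive, 9.80, 9.33 and 9.90 kb in Th1 and 4.67, 21.3 and 8.80 kb in Th2 lists. Its fold was 4.75 to 5.11, 5.13 to 6.29 and 2.73 to 4.56 in the 3 groups.

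Srgn encodes serglycin, the proteoglycan core on which granzymes and other basic proteins are stored. The annotated gene spans 33.6 kb (chr10:62493833-62527445) with start sites 19.7 kb apart. It was at 45.9%, 43.9% and 45.3% in naive, 62.8%, 57.6% and 58.4% in Th1 and 73.8%, 70.8% and 81.0% in Th2 lists. The groups did not overlap, with naive lowest and Th2 highest. Srgn was called higher in Th2 than in naive cells (30.1 points, SE 2.78, adjusted p = 5.7e-05). The steps from naive to Th1 (14.5 points, SE 2.78, adjusted p = 0.0026) and from Th1 to Th2 (15.6 points, SE 2.78, adjusted p = 0.0088) were below the minimum difference. After peaks with a −log10 q below 5 were dropped, the Th2 gain was 24.95 points and was not called.

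The differences in Srgn lay upstream of its downstream start site. From that start to the end of the gene, 13.9 kb, coverage was 94.2% ± 2.85 in naive lists, 98.3% ± 1.51 in Th1 and 97.9% ± 0.416 in Th2 lists. Between the start sites it was 10.3% ± 3.74, 32.2% ± 3.83 and 59.2% ± 8.80. The main peak reached 1.57, 1.19 and 1.47 kb upstream of the downstream start in naive, 6.59, 5.55 and 5.61 kb in Th1 and 8.34, 9.22 and 10.31 kb in Th2 lists. The window around the downstream start, printed above, was fully covered in all 9 lists. Within 3 kb downstream of the upstream start, coverage was 34.4%, 9.87% and 34.2% in Th2 and 0% in all naive and Th1 lists. The lncRNA gene Gm51804 fills most of the stretch between the start sites, so its mark and that of Srgn cannot be told apart. The peak's fold was 5.43 to 6.01 in naive lists, 7.02 to 9.11 in Th1 and 8.15 to 8.40 in Th2 lists, and it stood in the top 0.739 to 1.07% of each Th2 list.

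Counted over the 9 genes, 3 were called higher in Th1 than in naive cells (Gzmb, Gzmm and Nkg7) and 1 lower (Gzma). Over all 11600 tested genes the shares were 4.38% higher and 16.3% lower (20.7% in either direction), 508 and 1895 genes. Of the 9, 8 differed between any lists and could be tested; Gzmk could not. Against naive cells, Th2 cells had 2 genes called higher (Gzmb and Srgn; 4.26% of all genes) and 2 lower (Gzma and Prf1; 15.4% of all, 19.6% in either direction). Against Th1 cells, Th2 cells had none higher (2.08% of all) and 2 lower (Gzmm and Prf1; 1.56% of all, 3.64% in either direction). The median difference of the 8 was 19.0 points for Th1 and 0.42 points for Th2 against naive cells, where all tested genes had medians of -5.54 and -5.50, and -7.08 points for Th2 against Th1, where all had 0.02. Comparisons with naive cells share the naive lists. With libraries centred to one mean, which moved the median of all genes for Th1 against naive to 2.70 points, 736 genes were higher and 1175 lower, and 4 of the 9 were higher and 1 lower; with one covered length the counts were 818 and 1032 over all genes and 3 and 0 among the 9. For Th2 against naive cells, 494 higher and 1781 lower became 739 and 1118 with centring and 757 and 1094 with one covered length, and 2 higher and 2 lower of the 9 became 3 and 2, and 2 and 1. For Th2 against Th1 cells, 241 higher and 181 lower became 168 and 222 with one covered length and 144 and 174 without peaks under a −log10 q of 5.

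**Figure D4:**
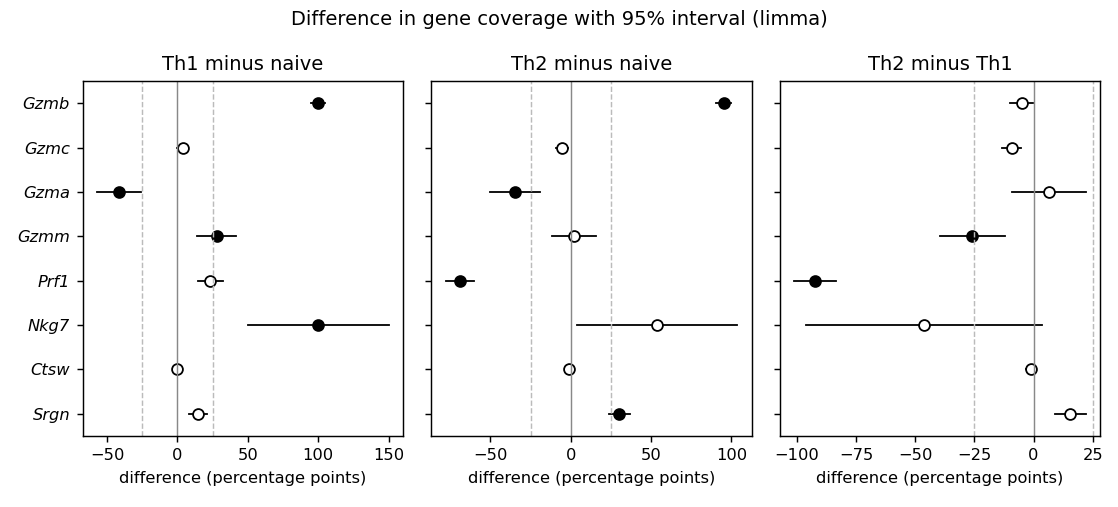
Difference in percent covered for the 8 testable genes in each comparison (points) with the 95% interval of limma (lines); filled points were called, and dashed lines mark the minimum of 25 points. Gzmb stands at 100 and 95.1 points against naive cells, and Prf1 at -68.8 and -92.3 points in Th2 cells.

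Coverage of 50% or more in 2 or more of the 3 lists was found for 2 of the 9 genes in naive cells (Prf1 and Ctsw), 5 in Th1 (Gzmb, Prf1, Nkg7, Ctsw and Srgn) and 4 in Th2 cells (Gzmb, Nkg7, Ctsw and Srgn). The same rule held for 33.1%, 26.5% and 26.8% of all protein-coding genes. No test was made of these counts.

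Genes of the granule that were not among the 9 were examined in 3 further lists. Of 19 genes of granule proteins, granzyme activators and inhibitors, 16 could be tested. Tnfsf10, which encodes the death ligand TRAIL, was the gene called higher, from 40.3% ± 1.197 in naive to 70.7% ± 2.91 in Th1 and 68.0% ± 6.66 in Th2 lists. Serpinb6a, a protease inhibitor gene (66.5% ± 2.45, 15.4% ± 3.43 and 12.6% ± 4.16), Ctsl, a lysosomal protease gene (33.3% ± 11.3, 0% and 0%), and Igf2r, a receptor that sorts enzymes to lysosomes (64.8% ± 2.91, 38.2% ± 3.14 and 37.6% ± 1.25), were called lower in Th1 and in Th2 cells. Fasl, the Fas ligand gene, was at 78.0% ± 4.27 in naive and 100% in all polarised lists, 22.0 points that fell short of the minimum. Serpinb9, which encodes the inhibitor of granzyme B, was at 24.2% ± 0.763, 43.2% ± 12.7 and 39.7% ± 6.90 and was not called (adjusted p = 0.031 and 0.065 against naive). Ctsc, the protease that activates granzymes, was at 75.3% ± 1.58, 54.6% ± 2.71 and 59.5% ± 2.52, also short of the minimum. Of all tested genes, 4.38% were called higher and 16.3% lower in Th1 against naive cells, and 4.26% and 15.4% in Th2. The counts of this list were near those shares and were not tested. The list's median difference was 0.10 points for Th1 and -6.30 points for Th2 against naive cells, beside -5.54 and -5.50 over all genes. No gene was called between Th2 and Th1.

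Of 28 genes of granule transport and exocytosis 23 could be tested, and Stx11 was the 1 called higher. Stx11 encodes syntaxin 11, a fusion protein without which granules are not released. It was at 10.1% ± 1.14 in naive, 96.3% ± 0.10 in Th1 and 93.3% ± 3.18 in Th2 lists (86.2 and 83.2 points, adjusted p = 2.7e-08 and 3.2e-08). Ap3d1, an adaptor for transport to lysosomes (100%, 66.1% ± 9.97 and 51.8% ± 2.08), Kif5b, a kinesin motor (89.2% ± 2.67, 43.8% ± 5.96 and 43.3% ± 4.26), and Dock8, an actin regulator (61.5% ± 2.33, 22.6% ± 2.93 and 31.2% ± 4.61), were called lower in Th1 and in Th2 cells. Sytl2, a partner of Rab27a, was lower in Th2 than in naive cells (27.3% ± 8.23 against 61.3% ± 2.10). Rab27a, which docks granules, was at 99.7% ± 0.461, 92.5% ± 1.07 and 85.2% ± 3.06, and Unc13d, which primes them, at 77.3% ± 8.80, 63.2% ± 4.97 and 53.0% ± 1.98; neither was called. Here too the counts called were near the shares over all tested genes and were not tested. Those shares were 4.38% higher and 16.3% lower for Th1, and 4.26% and 15.4% for Th2, against naive cells. The list's medians were -5.69 and -8.65 points against naive cells, beside -5.54 and -5.50 over all genes. No gene was called between Th2 and Th1.

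**Figure D5:**
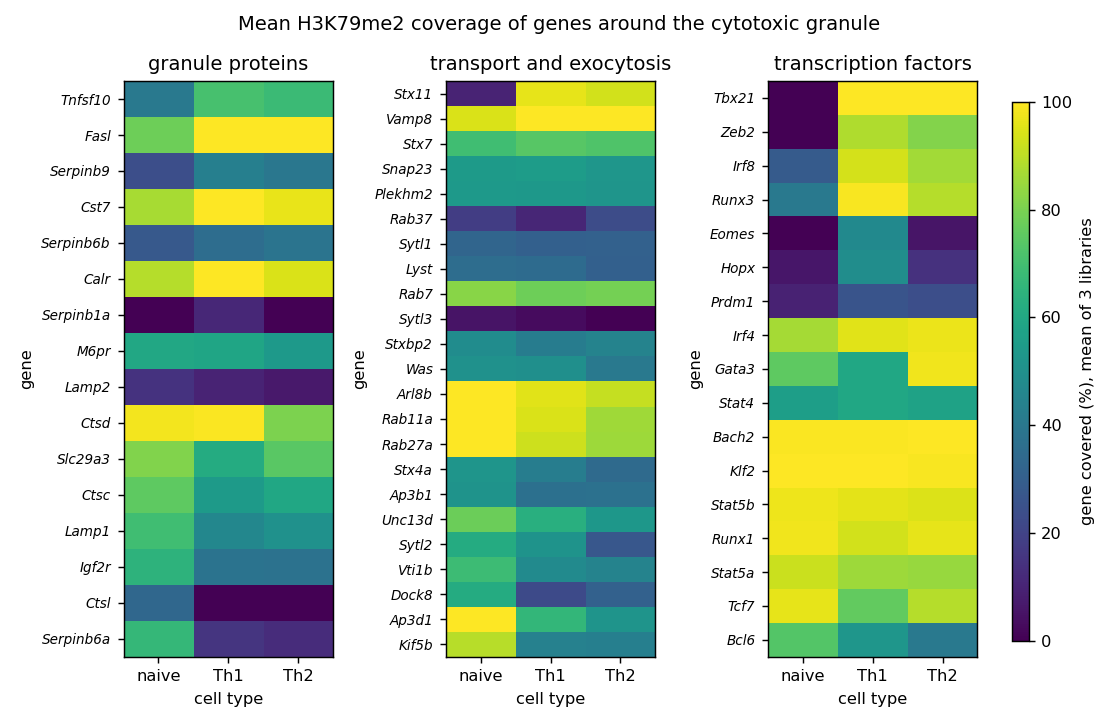
Mean percent covered (colour, 3 libraries) in each cell type for testable genes of the 3 further lists, ordered from gains at the top to losses at the bottom. Stx11 goes from 10.1% in naive to 96.3% and 93.3% in Th1 and Th2 cells, and Eomes and Hopx are highest in Th1 cells.

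Transcription factors known to act on cytotoxic genes made up the last list, of 20 genes with 18 testable. In Th1 against naive cells 6 were called higher and none lower: Tbx21, Zeb2, Irf8, Runx3, Eomes and Hopx. Over all tested genes 4.38% were called higher and 16.3% lower. In Th2 against naive cells Tbx21, Zeb2, Irf8 and Runx3 were called higher, and Bcl6 was called lower. Over all tested genes the shares there were 4.26% higher and 15.4% lower. Between Th2 and Th1 cells Gata3 was higher, and Eomes and Hopx were lower, beside 2.08% and 1.56% of all tested genes. These counts were not tested. Tbx21, the T-box factor of the Th1 lineage, was at 0% in naive, 100% in Th1 and 99.9% ± 0.160 in Th2 lists, close to the values of Gzmb. Eomes, the T-box factor of CD8 memory and NK cells, was at 0%, 47.4% ± 8.08 and 5.84% ± 7.66 (-41.5 points for Th2 against Th1, adjusted p = 0.0011). Hopx, a homeodomain protein of effector cells, was at 5.96% ± 2.39, 49.2% ± 2.11 and 14.1% ± 3.88. Zeb2, a transcriptional repressor made in effector T cells, was at 0%, 88.1% ± 2.65 and 81.5% ± 1.60. Irf8, an interferon regulatory factor, was at 28.9% ± 7.401, 93.5% ± 0.917 and 86.0% ± 3.94. Runx3, the RUNX factor of CD8 T cells, was at 40.3% ± 1.72, 98.9% ± 1.06 and 88.9% ± 8.33. Bcl6, a repressor of effector fates, was at 73.1% ± 3.96, 52.4% ± 3.84 and 40.4% ± 2.13, and Gata3, the factor of the Th2 lineage, at 75.3% ± 1.18, 59.7% ± 1.87 and 97.8% ± 1.89. The list's medians were 4.08 and 3.80 points against naive cells, beside -5.54 and -5.50 over all genes, and -1.55 points for Th2 against Th1, beside 0.02.

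Likeness to other genes was measured as the mean absolute difference in percent covered over the 9 lists, against 21630 genes. Closest to Gzmb were Kctd11 (1.30 points), Ctla2a (1.39), Cdkn1a (1.50) and Tbx21 (1.61), and 31 genes lay within 5 points of it. Closest to Gzmm were Sema3f (2.08 points), Dapk2 (2.55), Gzmf (2.62), Gm19345 (2.90) and Gpr15 (3.11). Srgn lay nearest to Nsun2 (3.14 points), Filip1l (3.56), Asb2 (3.81), Psat1 (4.17) and Cdon (4.47). Nkg7 and Prf1 had no gene within 5 points. The nearest to Nkg7 were Ccr2 (10.3 points), Pmaip1 (10.6), Cxcr3 (10.9), Chst11 (11.8) and Ltb4r1 (12.7), and the nearest to Prf1 were Rrad (12.1), Iigp1 (14.0), B3gnt8 (15.2), Klrk1 (18.3) and Coq2 (18.5). Klrk1, a receptor gene of killer cells, was at 26.9% in naive, 99.8% in Th1 and 2.597% in Th2 lists.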

How the data were processed

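The deposited files are 9 broad peak lists, 1 per H3K79me2 library; the 9 inputs carried no file used here. The genome build was mm10 and the tools named are MACS2, SAMtools, Picard and Bowtie2, per the submitters' processing notes; their versions, settings and the use of inputs are not given in the sources used here. Each deposited row gives start and end, a score, a fold enrichment (ratio), a −log10 p and a −log10 q value. Peaks were called per library by the authors. Depth per library is unknown, so no counting interval was set.

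Overlapping peaks of a list were merged, and the percent of each RefSeq gene body covered was computed (Python 3.11.15). The 11600 genes that differed between lists were fitted with limma 3.58.1 (R 4.3.3; 9 libraries, 6 residual degrees of freedom, variance trend). The fit uses the same spread for all groups of a gene, so a group bare or fully covered throughout adds none of its own. Calls needed a difference of at least 25 points and an adjusted p (Benjamini-Hochberg) under 0.05. On simulated Th1 against naive data of 11587 genes, the fit recovered 86% of 50 genes raised by 30 points and 92% of 50 raised by 50. It recovered 82% of 50 lowered by 30 and 98% of 50 lowered by 50. There were 0 false calls. Moved genes started from intermediate coverage, with spread mixed across groups. The rates may not hold for genes bare or fully covered throughout a group. Described were the 9 genes, the 2 nearest coding genes on each side where the text turns on them, genes of 4 lists by role that were called with up to 4 others each, and the 5 most alike genes. Alternatives left out weak peaks, matched covered length, centred libraries, widened genes, dropped the filter or variance trend, added a block or left out 1 library. Some genes that the rule names are not reported here. Members and lists were chosen with earlier results of these data known. Errors are SD (n = 3) unless SE is given.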

Additional observations from a re-analysis of the deposited data

How the results depend on the processing

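Over 387 values of single granule genes under the alternatives, 368 kept their call without a change of sign, 10 lost a call, 7 gained one and 2 changed sign. Differences that fell to 0 are among the 368, such as Gzmm for Th2 against naive with one covered length (from 1.80 points). Many of the 387 values could not change direction. Dropping the filter or variance trend, or adding the block, leaves a difference as it was and can change only its call. So does leaving out a library of the group outside a comparison. Genes with no test under a setting are not among the 387. The sign changes came with libraries centred to one mean, where Th2 against naive differences became 2.28 points for Gzmc and 6.73 points for Ctsw. The Th1 against naive difference of Ctsw went from 0 to 8.24 points there and counts as kept. Without peaks under a −log10 q of 5, 9953 genes were tested, 6 of them granule genes. Of the granule genes, 2 were called higher and 0 lower in Th1 against naive, beside 466 and 1721 of all genes. For Th2 against naive 1 was higher and 1 lower, beside 421 and 1733. In Th2 against Th1, 0 were higher and 1 lower, beside 144 and 174. With one covered length, 0 granule genes were lower in Th1 and 1 was lower in Th2 against naive, and all genes gave 818 higher and 1032 lower in Th1 and 757 higher and 1094 lower in Th2. Centring gave 1175 and 1118 genes lower than naive in Th1 and Th2. A window of 3 kb downstream of the start site, chosen after seeing the data, gave 691 and 587. Widening genes by 2 kb left 1 granule gene lower in Th2 against naive, beside 1631 of 12431 genes. Testing without the filter left 1 lower in Th2 against Th1, beside 159 of 21631. Leaving out 1 library in turn gave 1 to 3 granule genes lower in Th2 against Th1, beside 152 to 200 of all genes. Counts of covered granule genes moved to 5 (any overlap) and 1 (90% of the gene) in naive and to 2 (90%) in Th2 cells. Some genes did not vary under a setting and had no test there: Gzma, Gzmc and Gzmk without weak peaks, Gzma and Gzmk with one covered length, Gzmc, Gzmk, Ctsw and Srgn in the start window, and Ctsw without the first Th2 library.

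Libraries with the same replicate number did not deviate together (correlations of -0.0745 to 0.00147, and 0 of 9 libraries correlated best with their own number). Whether a number stands for a shared animal or day is not given, and these correlations cannot exclude it. With a replicate block, all genes gave 505 higher and 1878 lower in Th1 against naive, 491 and 1770 in Th2 against naive and 225 and 168 in Th2 against Th1. Granule genes then gave 3 higher and 1 lower, 2 and 2, and 0 and 2. Read depth is unknown, so a bare gene means only that no peak was listed there.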
